A study of Oryza sativa with 12 samples.

Results

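The comparison described here set leaves given VdAL together with azoxystrobin, called the combination from here on, against leaves given water. It holds 6 of the 12 RNA-seq libraries of the series, 3 labelled VdAL+ azoxystrobin and 3 labelled Water, chosen by the treatment label alone. All plants were TU100, an indica hybrid rice (Oryza sativa), and were 1 month old. The labels name leaf as the source and aerial tissue in the growth text, and they give no dose, time after treatment or number of plants per library. The other 6 libraries, 3 given azoxystrobin alone and 3 given VdAL alone, entered the fit to estimate the spread and serve as side values. Nothing in the labels says that the 3 libraries of a group came from separate plants, so the p-values rest on library-to-library spread that could be technical. The growth text speaks of 4 areas without linking them to samples, and if each treatment had its own area, treatment and area cannot be told apart.

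Azoxystrobin is a strobilurin fungicide. It binds cytochrome b in complex III of the mitochondrial electron transport chain, where ubiquinol is oxidised, and so stops electron flow to cytochrome c and the ATP synthesis that depends on it. Plant mitochondria have the same complex, and they also carry an alternative oxidase that takes electrons from ubiquinol directly and bypasses complex III. The labels do not expand the name VdAL, and no role is given for it here. The count tables hold gene IDs without names, and 0 of the 88438 IDs matched the rice reference table of 39387 genes. No gene function, pathway or leaf marker could therefore be read from these data, and the genes are described by their level, the size of their change and its error. At most 2 IDs in each direction are named.

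Reads assigned to genes numbered 7288437, 10144564 and 7016282 in water replicates 1 to 3 and 7513929, 7301658 and 6444650 in combination replicates 1 to 3. Of the listed IDs, 33832 had at least 1 read in these 6 libraries. After a filter on low counts 21381 genes were tested, with a median level of 14.8 CPM. Levels are in CPM, a gene's reads set against the total of its library, after adjustment with TMM factors (trimmed mean of M-values).

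By correlation, water replicate 3 was no nearer to its own group than to the combination. Its correlation with the other water libraries was 0.947 and 0.952 (Pearson, across the tested genes, log2 CPM), and with the combination libraries it was 0.953 to 0.961. Water replicates 1 and 2 correlated at 0.960 with each other and at 0.941 to 0.959 with the combination libraries. The combination libraries correlated at 0.962 to 0.974 among themselves. Within the water group, the chi-square and the deviation from the group mean did not single out 1 library, while the read shares given below set replicate 3 apart. The chi-square per degree of freedom of the counts, which grows with depth, was 11.3 between water replicates 1 and 3, 13.2 between 1 and 2 and 15.5 between 2 and 3. Between water replicate 3 and the combination libraries it was 8.64 to 9.31. The root mean square deviation from the group mean was 0.39, 0.35 and 0.41 log2 units in water replicates 1 to 3. Whether water replicate 3 carries the right label could not be checked, since no ID is known to mark a treatment. The counts of calls, their direction by level and the EPlOING share are therefore given with and without it, and most other values with it only. Across all recorded reads, the share not aligned uniquely was 15.0%, 16.1% and 9.01% in water replicates 1 to 3, and 12.6%, 13.0% and 12.9% in the combination. Water replicate 3 thus had the lowest share, and the combination lay between it and the other water libraries. The share of reads outside any gene was 45.5%, 45.5% and 49.6% in water and 46.8%, 46.3% and 47.5% in the combination. The part of these shares in the results was not tested by itself. A fit that took the non-unique share of the 12 libraries as a covariate made 426 calls. Of these, 355 were among the 366 calls described next and 71 were not.

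A total of 366 genes differed between the combination and water, of which 261 were lower and 105 were higher in the combination. A gene is called where its Benjamini-Hochberg adjusted p was under 0.05 in edgeR's quasi-likelihood test on all 12 libraries. The calls made up 1.71% of the tested genes, 1.22% lower and 0.491% higher. An unadjusted p under 0.05 was reached by 3071 genes, or 14.4%. The median log2 fold change of the lower genes was −1.10, a level 2.14-fold below water. The median of the higher genes was 0.75, a level 1.68-fold above water. Over all tested genes the median log2 fold change was −0.0113.

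Among the called genes, the lower ones had larger changes than the higher ones. They also had lower levels, with medians of 25.2 against 70.4 CPM over the 12 libraries, a mean that holds part of the change itself. At low levels only larger changes were called. The part of the level in this contrast was not tested. The middle 50% of the lower genes, between the quartiles, ran from −1.41 to −0.82 on the log2 scale and the whole list from −3.83 to −0.48. For the higher genes the quartiles were 0.63 and 0.90, and the list ran from 0.48 to 3.74. The estimate reached 2-fold in 151 of the 261 lower and 18 of the 105 higher genes, and 4-fold in 15 and 2 of them. Changes under 1.5-fold made up 10 of the lower and 20 of the higher calls. When the test asked for a change larger than 1.2-fold rather than different from 0 (edgeR's glmTreat), 133 genes passed, or 0.622% of those tested. Of these 106 were lower (0.496%) and 27 were higher (0.126%). On the log2 scale these lists had medians of −1.35 and 0.89. This count rested on single libraries, at 64, 42 and 287 when water replicate 1, 2 or 3 was left out and 40, 59 and 10 when combination replicate 1, 2 or 3 was.

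**Figure D1:**
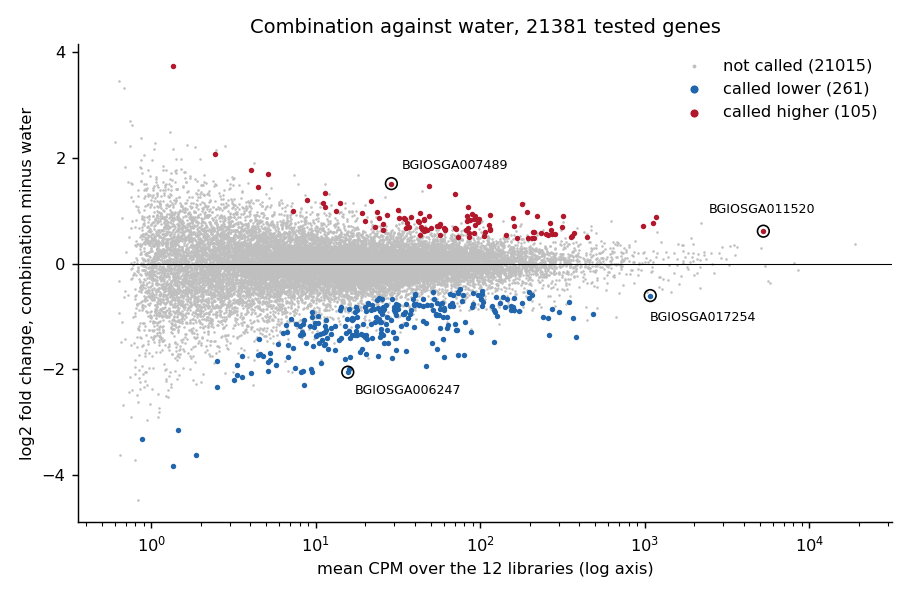
Log2 fold change of the combination against water (vertical axis) by mean CPM over the 12 libraries (horizontal log axis) for 21381 tested genes, with 261 genes called lower in blue, 105 called higher in red and the 4 named IDs ringed. Calls below 30 CPM lie mostly under 0, and the smallest change that was called was 1.84 log2 units under 3 CPM and 0.48 from 30 to 100 CPM.

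Direction and size both varied with the mean level of the gene over the 12 libraries. That mean includes the combination and the single treatments, so it holds part of the change itself. A gene lower in the combination can fall in a lower bin than its water level would give, and a higher one in a higher bin. BGIOSGA006247, for example, was at 35.4 CPM in water and 15.6 CPM over the 12 libraries. How much of the pattern comes from this was not tested. Among genes with a mean under 30 CPM, 148 of 170 calls were lower, or 87.1%. Between 30 and 100 CPM 77 of 125 calls were lower, or 61.6%, and from 100 CPM upward 36 of 71, or 50.7%. The share of all tested genes below 0, called or not, also fell from 10 CPM upward. It was 52.3% under 3 CPM, 51.6% from 3 to 10, 54.6% from 10 to 30 and 49.2% from 30 to 100 CPM. From 100 to 300 CPM it was 46.1%, and above that 41.8%. The median level over the 12 libraries was 25.2 CPM for the lower genes and 70.4 CPM for the higher genes. With RLE factors, upper-quartile factors or no scaling factor the share of lower calls was 83.9% to 88.5% under 30 CPM and 44.0% to 54.8% from 100 CPM upward. Without water replicate 3 it was 66.6% under 30 CPM and 51.7% from 100 CPM upward. The share from 100 CPM upward rested in part on single combination libraries. It was 73.6% when combination replicate 2 was left out and 68.0% when replicate 1 was. From 30 to 100 CPM these fits gave 73.0% and 66.7%, so no fall was left between these bins. The lowest share from 100 CPM upward among the alternatives was 39.1%, with DESeq2.

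The test reached smaller changes above 30 CPM than below it. The median SE of the log2 fold change was 0.58 under 3 CPM, 0.34 from 3 to 10 CPM, 0.21 from 10 to 30 CPM and 0.13 from 300 CPM upward. The smallest change that was called was 1.84 log2 units under 3 CPM, and 0.63 from 10 to 30 CPM. From 30 CPM upward it was about level, at 0.48 log2 units in the bins from 30 to 100 and from 100 to 300 CPM and 0.51 above that. The share of genes called rose along the same bins, from 0.207% (8 of 3865) under 3 CPM and 1.98% (113 of 5704) from 10 to 30 CPM to 3.71% (55 of 1483) from 100 to 300 CPM and 3.91% (16 of 409) above that. A low share among weakly expressed genes is therefore also what the depth allows, and it does not show that fewer of them changed.

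**Figure D2:**
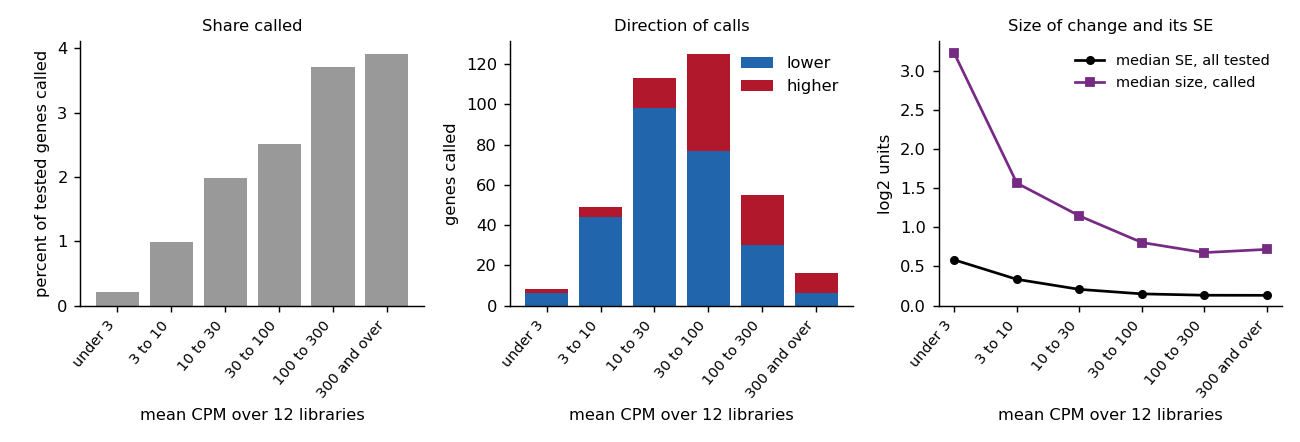
Bars and lines by bin of mean CPM over the 12 libraries: percent of tested genes called (left), number of genes called lower and higher (middle), and the median SE of all tested genes beside the median size of called changes, in log2 units (right). The share called rises from 0.207% to 3.91% while the median SE falls from 0.58 to 0.13.

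The genes called in this comparison that were most abundant, at 300 CPM or more on average, numbered 16. Lower calls made up 37.5% of them, near the 41.8% of all 409 tested genes of that level that were below 0. The 10 higher ones had log2 fold changes of 0.51 to 0.89, with means of 218 to 4170 CPM in water and 397 to 6377 CPM in the combination. The 6 lower ones had log2 fold changes of −1.38 to −0.60, with means of 469 to 1484 CPM in water and 229 to 976 CPM in the combination. Summed over the 10 genes, the mean level went from 8144 to 12910 CPM, and over the 6 genes from 4509 to 2499 CPM.

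Read by library, the 105 higher genes took 1.35%, 1.26% and 1.44% of all gene reads in water replicates 1 to 3, and 2.20%, 2.15% and 2.11% in the combination. The 261 lower genes took 1.97%, 2.18% and 1.79% in water and 1.10%, 1.04% and 0.961% in the combination. The groups do not overlap in either sum, which the choice of the genes fixes. In the azoxystrobin libraries the same 105 genes took 1.91% to 1.97% and the 261 genes 1.14% to 1.39%. In the VdAL libraries the values were 1.87% to 2.16% and 1.19% to 1.35%.

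The 3 combination libraries lay below all 3 water libraries in 2122 tested genes (9.92%) and above them in 1904 (8.91%), together 18.8%. Among the called genes this held for 365 of 366, and the groups overlapped in 1 of the lower genes. The gap between the nearest libraries of the groups had a median of 0.55 log2 units in the lower and 0.40 in the higher genes. Water replicate 3 was the water library nearest the combination in 141 of the 261 lower genes and 55 of the 105 higher genes. Water replicate 2 was nearest in 34 and 23, and water replicate 1 in 86 and 27.

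The position of each library for these genes, as the median of its log2 CPM minus the mean of the 3 water libraries, showed the same order of groups in both lists. For the lower genes the water libraries were at 0.00, 0.15 and −0.13, and the combination libraries at −0.99, −1.003 and −1.19. The azoxystrobin libraries were at −0.60, −0.68 and −0.87 and the VdAL libraries at −0.76, −0.62 and −0.67, between water and the combination. For the higher genes water was at −0.04, −0.05 and 0.06, the combination at 0.77, 0.76 and 0.73, azoxystrobin at 0.45, 0.52 and 0.49, and VdAL at 0.46, 0.61 and 0.59. These genes were picked for their difference between the combination and water, which by itself favours a larger value there than in groups not used to pick them. The comparisons of the 3 treatments with water also share the water libraries, so the side values are a description and were not tested as a set.

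**Figure D3:**
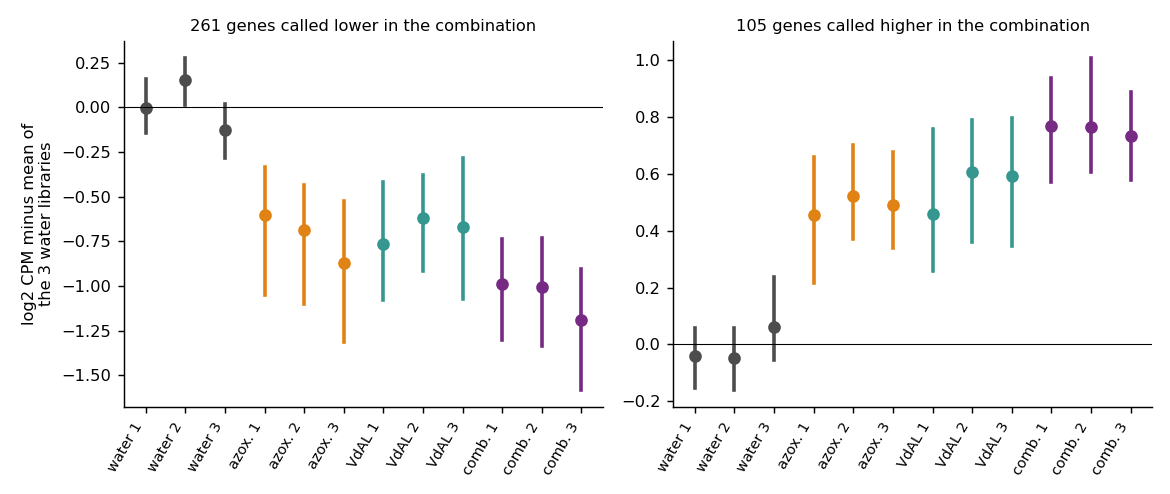
Median (point) and quartiles (bar) of log2 CPM minus the mean of the 3 water libraries, for each of the 12 libraries, over the 261 genes called lower (left) and the 105 called higher (right) in the combination. The combination libraries lie at −0.99 to −1.19 and 0.73 to 0.77, and both single treatments lie between them and water.

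How many genes were called depended on which library was left out. Without water replicate 3 there were 711 calls (3.24% of the genes then tested), 438 lower and 273 higher. Without water replicate 1 there were 198 (0.902%) and without water replicate 2 there were 134 (0.611%). Without combination replicates 1, 2 and 3 there were 138 (0.629%), 252 (1.15%) and 110 (0.501%). Of the 366 genes, 325 were among the 711 called without water replicate 3, which is 88.8% of the 366 and 45.7% of the 711. Without the other libraries 29.2% to 53.8% of the 366 genes were still called, and 0 genes were called in the opposite direction in any of these 6 fits. DESeq2 called 724 genes, 1.98% of the 36532 given to it, of which 18349 received no adjusted p. These calls held 358 of the 366. With edgeR on the 6 libraries alone there were 177 calls (0.873%), among them 163 of the 366.

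The 386 genes called only without water replicate 3 had that library near the combination. In the 200 lower ones of these, water replicate 3 had a median of −0.63 log2 units relative to the mean of water replicates 1 and 2, and the combination libraries −0.88, −0.78 and −1.02. In the 186 higher ones water replicate 3 stood at 0.88 and the combination libraries at 0.92, 1.09 and 0.97. Genes that are called only when a library is removed are by that choice genes in which it departs from its group, so these medians describe the list and support nothing beyond it.

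**Figure D4:**
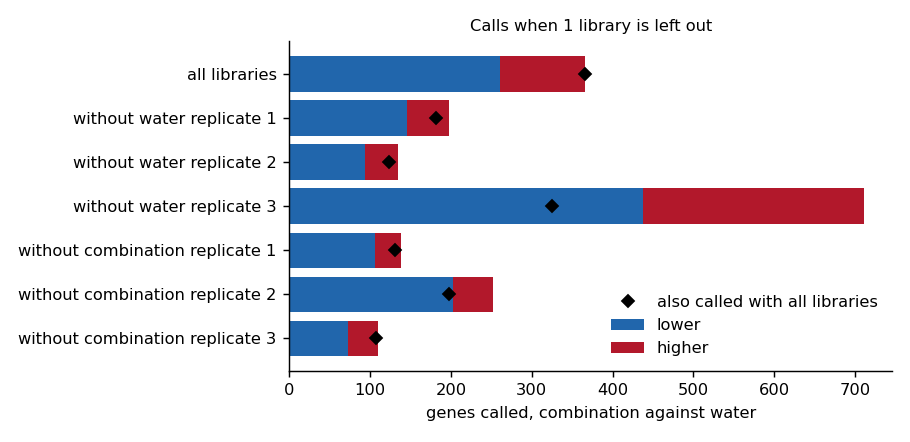
Number of genes called lower (blue) and higher (red) in the combination against water with all libraries and with 1 library left out. Diamonds give how many of them were also called with all libraries. The count is 711 without water replicate 3 and 110 to 252 without any of the other 5.

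A set of 79 genes, 56 lower and 23 higher, was called in all 6 fits that left out 1 library. Their levels over the 12 libraries ran from 7.49 to 380 CPM in the lower and 5.11 to 1169 CPM in the higher genes. The lower ones had log2 fold changes of −2.05 to −0.70 with a median of −1.35, and 44 of the 56 were at least 2-fold lower. The higher ones had log2 fold changes of 0.73 to 1.70 with a median of 0.89, and 5 of the 23 were at least 2-fold higher. At the other end, 18 of the 366 were called in 0 of these fits and 98 in 1.

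The 4 named IDs are extremes picked from the called genes of at least 10 CPM whose groups do not overlap. Per direction the rule takes the largest fold change and the largest difference in mean CPM. Picking the largest by itself favours overestimated changes. In the test against 1.2-fold (glmTreat) BGIOSGA007489 and BGIOSGA006247 passed, with adjusted p of 0.0179 and 0.0305. BGIOSGA011520 and BGIOSGA017254 did not pass it, with adjusted p of 0.081 and 0.136. BGIOSGA007489, of largest fold increase, was at 12.7, 13.0 and 10.23 CPM in water replicates 1 to 3 and at 41.8, 24.2 and 36.9 CPM in the combination. Combination replicate 2 was the lowest of its group and still above every water library. The means were 11.98 ± 1.52 and 34.3 ± 9.08 CPM (SD, n = 3), a log2 fold change of 1.51 (SE 0.26, 95% interval 0.96 to 2.06, adjusted p = 0.00678 in edgeR's test). It was called in all 6 fits with 1 library left out, at 1.34 to 1.71. In azoxystrobin it stood at 39.5, 36.1 and 17.9 CPM and in VdAL at 41.5, 33.5 and 37.9 CPM, in the range of the combination except azoxystrobin replicate 3.

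BGIOSGA006247, of largest fold decrease, was at 50.2, 41.8 and 14.3 CPM in water and at 8.38, 13.1 and 4.12 CPM in the combination. Water replicate 3, at 14.3 CPM, lay close to combination replicate 2 and far from the other water libraries. The means were 35.4 ± 18.8 and 8.52 ± 4.47 CPM (SD, n = 3), a log2 fold change of −2.05 (SE 0.40, 95% interval −2.90 to −1.20, edgeR adjusted p = 0.0150). It was no longer called without water replicate 1 (adjusted p = 0.0692), without water replicate 2 (0.0531), without combination replicate 1 (0.0761), without combination replicate 3 (0.0868) or on the 6 libraries alone (0.0581). It was still called without water replicate 3 (log2 fold change −2.42, edgeR adjusted p = 0.00099) and without combination replicate 2 (−2.49, 0.0169). Azoxystrobin libraries held 10.9, 6.75 and 9.03 CPM and VdAL libraries 10.8, 11.3 and 6.98 CPM, all below water replicate 3.

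BGIOSGA011520 had the largest increase in mean CPM. It was at 4390, 3671 and 4449 CPM in water and at 6018, 7083 and 6031 CPM in the combination, so that the lowest combination library exceeded the highest water library. The means were 4170 ± 433 and 6377 ± 611 CPM (SD, n = 3), a log2 fold change of 0.61 (SE 0.11, 95% interval 0.37 to 0.86, edgeR adjusted p = 0.0108). It was not called without water replicate 2 (edgeR adjusted p = 0.0546) or on the 6 libraries alone (0.0537). In azoxystrobin it stood at 5261, 5230 and 5327 CPM and in VdAL at 4845, 5114 and 5557 CPM, all between the water and the combination libraries.

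BGIOSGA017254 had the largest decrease in mean CPM, from 1425, 1466 and 1562 CPM in water to 1074, 980 and 874 CPM in the combination. All 3 combination libraries were well below the lowest water library. The means were 1484 ± 70.3 and 976 ± 100.1 CPM (SD, n = 3), a log2 fold change of −0.60 (SE 0.13, 95% interval −0.87 to −0.33, edgeR adjusted p = 0.0232). It was not called without water replicate 2 (adjusted p = 0.0630), without combination replicate 2 (0.0628), without combination replicate 3 (0.136) or on the 6 libraries alone (0.0507). Azoxystrobin libraries held 1131, 1081 and 937 CPM and VdAL libraries 941, 726 and 732 CPM.

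**Figure D5:**
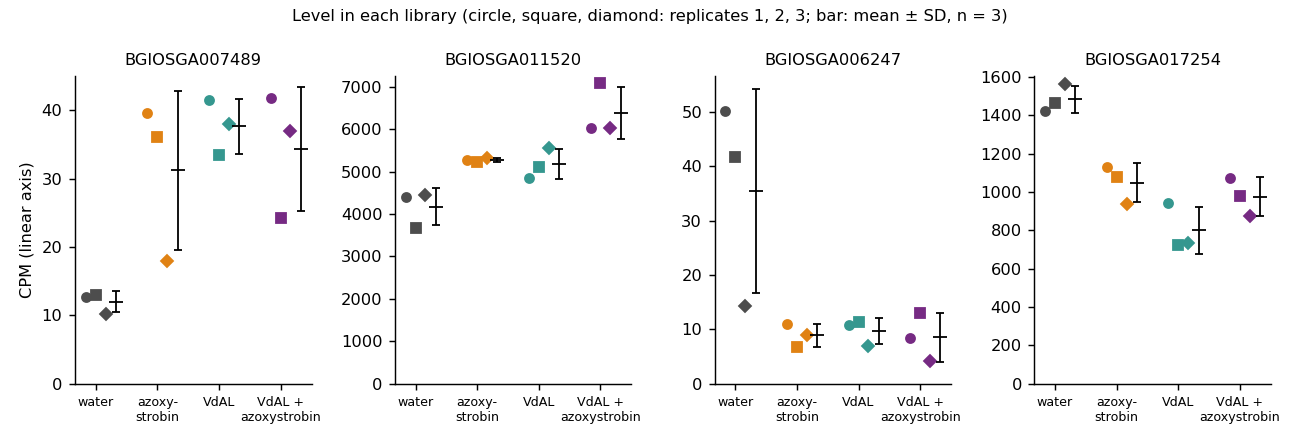
CPM (vertical linear axis from 0) of the 4 named IDs in each library of the 4 treatments, with the mean and SD of 3 libraries beside each group. The 3 combination libraries lie above water for BGIOSGA007489 and BGIOSGA011520 and below water for BGIOSGA006247 and BGIOSGA017254.

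None of these 4 IDs was called between the combination and a single treatment by edgeR's test, with p adjusted over all tested genes. The log2 difference of BGIOSGA011520 was 0.27 from azoxystrobin (95% interval 0.03 to 0.52, adjusted p = 0.360) and 0.30 from VdAL (0.06 to 0.54, adjusted p = 0.272). For BGIOSGA017254 it was −0.10 from azoxystrobin (−0.37 to 0.17, adjusted p = 0.805) and 0.29 from VdAL (0.02 to 0.56, adjusted p = 0.353). BGIOSGA007489 differed by 0.14 from azoxystrobin (−0.38 to 0.66, adjusted p = 0.874) and by −0.14 from VdAL (−0.65 to 0.38, adjusted p = 0.866). The widest intervals were those of BGIOSGA006247, with a difference of −0.06 from azoxystrobin (−0.95 to 0.82) and −0.17 from VdAL (−1.05 to 0.70). Intervals of this width still hold sizeable differences, so the levels are not shown to be alike.

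The data bounded the change to under 2-fold for most genes, but to under 1.5-fold for a smaller part. In 7126 genes (33.3% of those tested) the whole 95% interval of the fold change was under 1.5-fold up or down. In 13879 (64.9%) it was under 2-fold, and in 19900 (93.1%) it was under 4-fold. For 113 genes (0.529%) it was under 1.2-fold. An interval entirely beyond 1.5-fold was found for 222 genes, of which 165 were called, and one entirely beyond 2-fold for 46, of which 39 were called. These intervals hold for each gene alone and are not adjusted over the tested genes. Beyond 1.2-fold they lay in 846 genes, 355 of them called, while 133 passed the adjusted glmTreat test against 1.2-fold.

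Genes with reads in 1 group and none in the other were few and weak. Of the 33832 IDs with a read in these 6 libraries, 53 had no read in any water library and at least 1 in each combination library. The largest of the 53 had 18 reads summed over the combination. In 108 IDs the reads were in water, with at most 25 in sum. Water held the deepest of the 6 libraries, replicate 2 with 10144564 gene reads, and the part of depth in these counts was not tested. By counting error alone, a sum of 0 reads in a group allows up to 3. In 6 of the 53 IDs and 33 of the 108 the other group held 10 reads or more, and 0 of these IDs passed the filter on low counts.

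The IDs starting with EPlOING, of which 1300 were tested beside 20081 starting with BGIOSGA, gave 5 calls, 3 lower and 2 higher, or 0.385% against 1.80% of the BGIOSGA IDs. Their median level was 2.96 CPM against 16.4 CPM, and their median SE 0.47 against 0.22, so smaller changes were out of reach for them. The share of gene reads on EPlOING IDs was 1.39%, 1.34% and 1.18% in water and 1.28%, 1.23% and 1.21% in the combination, and the groups overlapped. The difference of the means, −0.060 percentage points, gave p = 0.5 in a two-sided exact permutation test, in which 3 against 3 libraries cannot go below 0.1. When water replicate 3 was left out the groups no longer overlapped and the difference was −0.12 points (exact p = 0.1, again the smallest possible), and when water replicate 1 was left out it was −0.016 points (exact p = 0.9).

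The spread between libraries was wider in water. The common biological coefficient of variation was 23.6% in water and 14.6% in the combination, when each was estimated alone. The SD of log2 CPM was larger in water in 13202 of 21381 tested genes (61.7%), with medians of 0.28 and 0.21. Among the called genes it was larger in water in 142 of the 261 lower and 70 of the 105 higher. In the combination the root mean square deviation from the group mean was 0.28, 0.32 and 0.34 log2 units in replicates 1 to 3, below each of the water libraries.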

How the data were processed

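Messenger RNA of rice leaves was measured by RNA-seq in 12 libraries, read as paired ends on an Illumina HiSeq instrument per the labels. The authors deposited raw read counts per gene ID. The submitters' processing notes name TopHat2 2.1.0, HTSeq 0.6.1 and edgeR 3.16.3 without order or settings, and the pig build Sscrofa10.2, which the IDs do not bear out, since 0 start with ENSSSC. The sources used here do not give the build, counting mode, strand setting or annotation, so no coordinates are printed, and reads of overlapping or near-identical genes may be split or lost. The closing rows of the deposited counts, which hold reads not assigned to a gene, entered neither library sizes nor tests. They held reads outside any gene, reads that fit several genes and reads not aligned uniquely, with 0 reads listed as unaligned or of low quality.

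Groups follow the treatment label and replicate numbers the sample titles. The analysis used edgeR 4.0.16 under R 4.3.3. The filter on low counts was filterByExpr on the 4 groups with minimum count 10, and TMM gave the scaling factors. One mean per group was fitted over the 12 libraries with glmQLFit (8 residual and 8.90 prior degrees of freedom) and tested with glmQLFTest and, against 1.2-fold, glmTreat. P-values are two-sided and Benjamini-Hochberg adjusted over all tested genes. SE is the log2 fold change divided by the square root of F, and 95% intervals use the t distribution. Library positions and correlations use log2 CPM with a prior count of 2. On simulated data with 200 of the genes changed between combination and water, 20984 genes passed the filter. The test called 50 of 100 genes changed 2-fold and 83 of 97 tested genes changed 4-fold, with 10 false calls among 143. Each simulated gene had the same spread in all groups and no departing library. In the data the common biological coefficient of variation was 23.6% in water and 14.6% in the combination, so these rates may not carry over. No library pair within the comparison agreed within sampling noise, with a chi-square per degree of freedom of at least 4.21.

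Alternatives were RLE, upper-quartile and no scaling factors, DESeq2 1.42.0, limma 3.58.1 voom with a spread per group, no filter, a minimum count of 30, the 6 libraries alone, the non-unique read share as covariate, the replicate number as block, and each of the 6 libraries left out. The fit on the 6 libraries alone without water replicate 3 was added after seeing the data. The comparison, the lists and the rule for named IDs, given in the report, were chosen with earlier results of these data known. Lists of respiration, detoxification, defence and photosynthesis genes and of tissue markers had 0 members that could be measured, because the IDs carry no names.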

Additional observations from a re-analysis of the deposited data

How the results depend on the processing

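The count of 366 calls stayed within 1.5 times under RLE factors, upper-quartile factors, no scaling factor, voom with a spread per group, a minimum count of 30, the covariate and the replicate block. DESeq2 called 724 genes (456 lower, 268 higher). Without a filter there were 1048 (696 lower, 352 higher), and 541 past 1.2-fold. In that fit the prior degrees of freedom were infinite, so each gene took the spread of the trend. Of the added calls, 676 were genes tested but not called in the fit that gave the 366. The 6 libraries alone gave 177 calls (136 lower, 41 higher), and 62 past 1.2-fold against 133. The 6 libraries alone without water replicate 3 gave 575 calls, 227 of them higher, and 317 past 1.2-fold. Leaving out 1 library gave 110 to 711 calls, 72 to 438 lower, 32 to 273 higher, and 10 to 287 past 1.2-fold. The 10 were without combination replicate 3. In all 17 alternatives together 78 of the 366 genes were called, 56 lower and 22 higher, and 0 of the 366 were called in the opposite direction in any of them.

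The labels do not say whether the replicate numbers pair the samples. Same-numbered water and combination libraries had correlations of deviations of 0.067, −0.044 and 0.045. Unlike-numbered ones ran from −0.12 to 0.061. Deviations from a mean of 3 libraries depend on each other, so these few values cannot show that an effect of the replicate number is absent. They also cannot tell how the samples were collected. With the replicate block 324 genes were called, 295 of them among the 366.

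The log2 fold changes of the 4 named IDs against water kept their sign in all alternatives, at 1.34 to 1.71 for BGIOSGA007489, 0.53 to 0.66 for BGIOSGA011520, −2.49 to −1.73 for BGIOSGA006247 and −0.68 to −0.53 for BGIOSGA017254. Of the 8 differences from the single treatments, those of BGIOSGA006247 and BGIOSGA007489 changed sign and those of the other two IDs did not. With the covariate, that of BGIOSGA006247 was 0.14 from azoxystrobin and 0.52 from VdAL. With 1 library left out it ran from −0.50 to 0.26 and from −0.61 to 0.15, above 0 without combination replicate 3. That of BGIOSGA007489 ran from −0.030 to 0.34 from azoxystrobin, below 0 without combination replicate 1, and from −0.30 to 0.062 from VdAL, above 0 without combination replicate 2. The cause was not tested. The EPlOING share was lower in the combination in all 7 alternatives, by 0.016 to 0.12 percentage points, with exact p from 0.1 to 0.9. Depth limits what could be called among weak genes, with a median SE of 0.34 log2 units from 3 to 10 CPM and 0.58 under 3 CPM.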
